A study of Oryctolagus cuniculus with 15 samples.

Results

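Expression of 8 feedback inhibitors of mitogen-activated protein kinase (MAPK) and cytokine signaling was examined in cultured rabbit corneal keratocytes, the resident cells of the corneal stroma. The genes were DUSP1, DUSP2, DUSP4, DUSP5, DUSP6, SPRY2, SPRY4 and SOCS3, which were taken by name from a table of 23428 protein-coding genes. All 8 were present in the table. Keratocytes from New Zealand white rabbit eyes were used at the first passage and cultured without serum for 6 days, and RNA was then collected from 3 libraries for each of 5 conditions, 15 libraries in all.

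In the 2D collagen-coated condition (2DC), cells grew on a collagen-coated dish and were incubated with digestion medium, which contains collagenase and hyaluronidase, before lysis in the dish. The 2D lysis control (2DC_L) was grown on the same substrate and lysed directly, so that it is the undigested reference. In the 2D fibrillar condition (2DF) cells grew on top of a fibrillar collagen matrix, and in the 3D conditions they were embedded in such a matrix at 100000 cells per matrix (3DF) or 50000 cells per matrix (3DF_50). All matrices were digested in the same medium, but they were also lifted from the dish, rocked, spun and rinsed before lysis. Only 2DC vs. 2DC_L therefore sets the digestion step apart from the matrix. That step includes the incubation in the medium and a further rinse, and the enzymes cannot be told apart from these. In any comparison of a matrix with 2DC_L the digestion, the handling and the matrix cannot be told apart. Against 2DC, the handling and the matrix cannot be told apart. No matrix condition was lysed without digestion. Among digested conditions, a level in culture therefore cannot be told apart from a different response to digestion and handling. This holds for 3DF and 3DF_50 vs. 2DF as well. The matrix conditions also differ from the 2DC dish in stiffness, and 3D cultures have fewer cell contacts than 2D cultures. Each library pooled several dishes or matrices of 1 experiment.

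MAPK pathways carry signals from growth factor receptors, integrins and stress to the nucleus by phosphorylation of ERK, JNK and p38 kinases. Many of the genes that they induce encode proteins that switch the same pathway off again. The dual-specificity phosphatases (DUSPs) remove the activating phosphates from the kinases, Sprouty proteins dampen signaling between receptor tyrosine kinases and ERK, and SOCS3 blocks JAK kinases at receptors of the interleukin-6 family. Transcripts of several of these inhibitors appear within minutes of a stimulus and are short-lived, and they are used as readouts of recent pathway activity.

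Between 14626982 and 31804255 reads were counted per library. All 6 keratocyte markers examined were expressed in every condition, with a summed level of 20042 to 43020 FPKM (fragments counted per gene, scaled by gene length and library size) per library. Levels below are FPKM, given as mean ± SD (n = 3) or per library, so that they are scaled for gene length. Fold changes come from the counts, by edgeR's two-sided quasi-likelihood test for each pair of conditions, and a gene was called when its Benjamini–Hochberg adjusted p over all genes tested was at most 0.05 and its log2 fold change was at least 1 in size. Comparisons against the same condition share its 3 libraries. In bulk RNA, fewer cells of a type and less RNA per cell cannot be told apart.

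DUSP1 was the most abundant of the 8 transcripts in every library, and the 8 inhibitors summed were lowest in the undigested control. Their summed level was 52.6 ± 9.21 FPKM in 2DC_L, 297 ± 24.5 in 2DC, 532 ± 42.8 in 2DF, 548 ± 190.2 in 3DF and 388 ± 28.6 in 3DF_50. DUSP1 made up 48.7 to 55.6% of this sum in the 2DC_L libraries and 71.9 to 85.7% in the others. SPRY4 took 12.1 to 16.6% of it in 2DC_L and 2.16 to 3.81% in 2DF. The smaller share in 2DF is of a larger sum, and the level of SPRY4 was higher there, at 16.6 ± 3.66 against 7.38 ± 2.67 FPKM in 2DC_L.

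**Figure D1:**
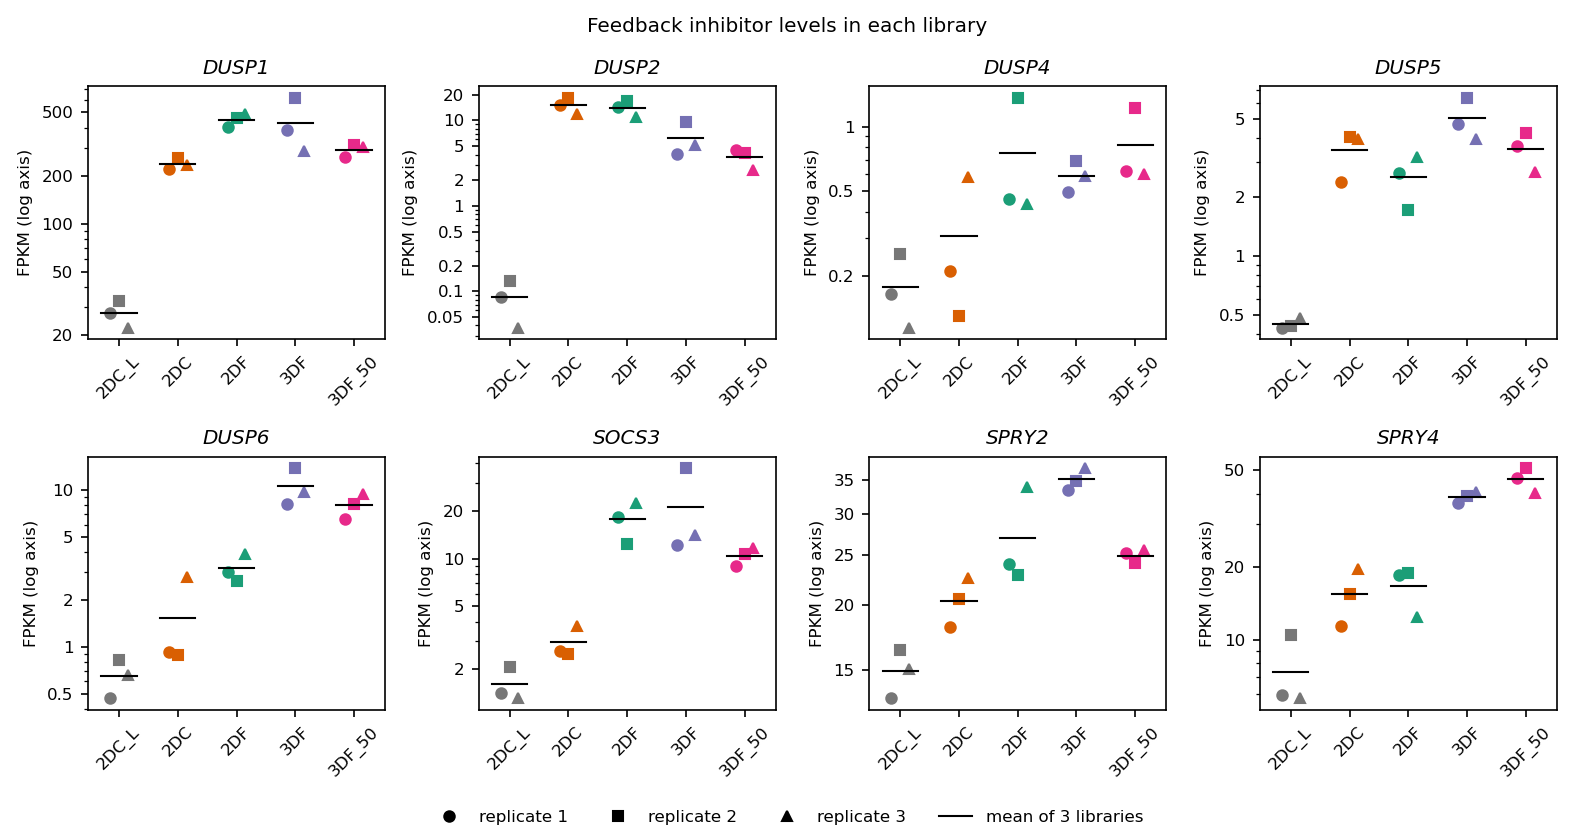
FPKM of the 8 inhibitors in each of the 15 libraries (points) with the mean of each condition (bar), on a log axis. DUSP1, DUSP2 and DUSP5 are low in the 3 undigested 2DC_L libraries and higher in all others, while DUSP6 and SPRY4 are highest in the 3D conditions, at means of 10.6 (DUSP6, 3DF) and 45.9 FPKM (SPRY4, 3DF_50).

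The comparison of 2DC with 2DC_L asked how the digestion step alone affects these transcripts. DUSP1, DUSP2 and DUSP5 rose with digestion, and the other 5 members were not called. Over all genes, 0.265% were called in this comparison and 0.257% were called higher. The libraries of 2DC lay above all 3 of 2DC_L for 7 of the 8 members, DUSP4 being the exception, and 7.39% of all genes were separated in that direction. DUSP2 entered this comparison through the 2DC libraries, since 0 of the 3 libraries of 2DC_L reached the count filter. It therefore does not add to the count of calls or of separated members as support.

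DUSP1 encodes a nuclear phosphatase that acts on p38, JNK and ERK and is a classical immediate early gene. Its level in the 3 libraries of 2DC_L was 27.3, 32.4 and 22.2 FPKM. In 2DC it was 219.9, 258 and 235 FPKM. The 2 groups are far apart and tight, and the log2 fold change was 3.12 ± 0.15 (SE), or 8.67-fold (edgeR, adjusted p = 2.28e-05).

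DUSP2, an inducible nuclear phosphatase best known from activated immune cells, was close to absent without digestion. The 2DC_L libraries held 4, 6 and 1 counts of it, or 0.0867, 0.133 and 0.0378 FPKM. In 2DC the level was 15.1, 18.6 and 12.03 FPKM. The log2 fold change was 7.31 ± 0.30 (edgeR, adjusted p = 1.17e-05), the largest of the 8 members, though its size rests on the few counts in the control. DUSP2 passed the filter on low counts in this comparison only through the digested libraries.

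DUSP5, a nuclear phosphatase selective for ERK and itself induced by ERK signaling, was at 0.429, 0.439 and 0.482 FPKM in 2DC_L. It reached 2.38, 4.05 and 3.92 FPKM in 2DC, with every library of 2DC above every library of 2DC_L. Its log2 fold change was 2.94 ± 0.26 (edgeR, adjusted p = 0.00183).

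DUSP4 is another nuclear phosphatase of the inducible class, and it was the least expressed of the 8 genes when averaged over digested libraries. It averaged 0.177 ± 0.0695 FPKM in 2DC_L and 0.306 ± 0.240 FPKM in 2DC, and the groups overlapped. Its log2 fold change of 0.72 ± 0.60 did not pass (edgeR, adjusted p = 0.919).

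The members that act outside the nucleus were not called. The log2 fold change in 2DC vs. 2DC_L was 1.22 ± 0.48 for DUSP6, 1.05 ± 0.26 for SPRY4, 0.87 ± 0.26 for SOCS3 and 0.45 ± 0.11 for SPRY2. By edgeR the adjusted p of these 4 genes was 0.854, 0.437, 0.667 and 0.376, in that order, while their unadjusted p was 0.0334, 0.00387, 0.00946 and 0.00279. These p-values do not show that the 4 transcripts were the same with and without digestion.

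Library names start with a prefix that some conditions share. The labels do not say what the prefix stands for. Within the 2 prefixes shared by 2DC and 2DC_L, DUSP1 was 7.94 and 8.06 times, DUSP2 140 and 174 times and DUSP5 5.55 and 9.21 times as high in 2DC. These ratios are close to the pooled ones for DUSP1 and DUSP2. For DUSP6 the ratios were 1.08 and 1.97, so the third 2DC library, at 2.78 FPKM against 0.924 and 0.890 in the others, carried much of its pooled difference.

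**Figure D2:**
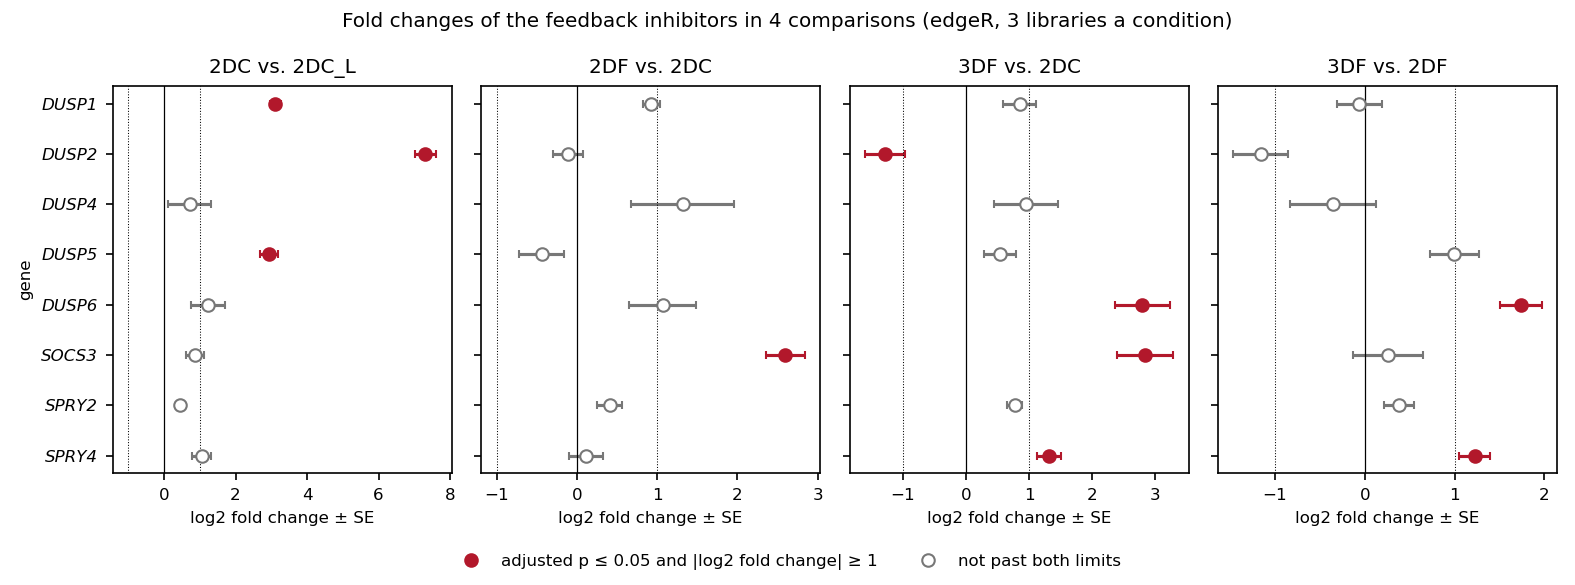
Log2 fold change of each inhibitor (points, with bars of 1 SE, n = 3 libraries per condition, edgeR) in 4 comparisons (a panel each), with filled points for called genes and dotted lines at the fold limit. DUSP1, DUSP2 and DUSP5 stand at 3.12, 7.31 and 2.94 in 2DC vs. 2DC_L, while in 3DF vs. 2DC the called points are DUSP6, SOCS3 and SPRY4 above 0 and DUSP2 below it.

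The matrix conditions were then set against 2DC_L, where digestion, handling and matrix act together. All 8 members were called higher in 3DF vs. 2DC_L, where 10.2% of all genes were called and 4.24% of all genes were called higher. In 2DF vs. 2DC_L 7 members were called higher, against 7.39% of all genes called and 2.93% called higher. In 3DF_50 vs. 2DC_L 7 members were called higher as well, against 13.5% of all genes called and 5.05% called higher. DUSP2 and DUSP4 entered these 3 comparisons through the matrix libraries, since 0 of the 3 libraries of 2DC_L (DUSP2) and at most 1 of them (DUSP4) reached the count filter, so that their calls do not add to the counts as support. SPRY2 was the member not called in these 2 comparisons, with log2 fold changes of 0.86 and 0.75. Every matrix library lay above every 2DC_L library for all 8 members, while 19.8% (2DF), 22.5% (3DF) and 27.6% (3DF_50) of all genes were separated upward. DUSP2 and DUSP4, which entered through the matrix libraries, do not add support here either.

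Against 2DC_L, the log2 fold changes of DUSP1 were 4.05 ± 0.16 in 2DF, 3.98 ± 0.30 in 3DF and 3.41 ± 0.15 in 3DF_50. For DUSP6 they were 2.29 ± 0.27, 4.02 ± 0.28 and 3.62 ± 0.22, and for SOCS3 3.45 ± 0.25, 3.71 ± 0.45 and 2.68 ± 0.20. Without 3DF replicate 2, which had the highest SOCS3 level, SOCS3 in 3DF vs. 2DC_L was 3.02. DUSP4 was called in all 3 comparisons, at 2.04 ± 0.55, 1.67 ± 0.38 and 2.14 ± 0.44, on 4 to 51 counts per library. In 2DF its call was lost without 2DC_L replicate 1, 2DC_L replicate 3 or 2DF replicate 2, with edgeR adjusted p = 0.0891, 0.0824 and 0.0971, and in 3DF without 2DC_L replicate 1 (edgeR, adjusted p = 0.0610). With the library prefix as a block in a fit of all 5 conditions, DUSP4 was called in none of the 3 comparisons, with edgeR adjusted p = 0.967 in 2DF, 0.254 in 3DF and 0.0912 in 3DF_50. In the same fit 4 further calls in 2DF vs. 2DC_L were lost, those of DUSP5, DUSP6, SOCS3 and SPRY4, with edgeR adjusted p = 0.102, 0.272, 0.078 and 0.286. Without 2DF replicate 2 the log2 fold change of DUSP4 in 2DF vs. 2DC_L was 1.29.

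Among the 4 digested conditions, an F test over 2DC, 2DF, 3DF and 3DF_50 in 1 edgeR model passed for 6 of the 8 members, with adjusted p from 2.41e-05 for SPRY4 to 0.00981 for DUSP1. It did not pass for DUSP5 (edgeR, adjusted p = 0.0594) or DUSP4 (edgeR, adjusted p = 0.192). Over all genes 32.5% passed this test. The pairwise comparisons that follow show which conditions differed, in levels after digestion.

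DUSP6 encodes a cytoplasmic phosphatase specific for ERK, and it had the clearest 3D pattern of the phosphatases. Its level was 0.924, 0.890 and 2.78 FPKM in 2DC and 2.99, 2.62 and 3.92 FPKM in 2DF. The 3DF libraries were at 8.13, 13.8 and 9.72 FPKM and those of 3DF_50 at 6.54, 8.15 and 9.37 FPKM. The 6 libraries of embedded cells therefore lay above all 6 digested 2D libraries, while 2DC and 2DF overlapped.

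DUSP6 rose in 3DF vs. 2DC by 2.79 ± 0.44 on the log2 scale (edgeR, adjusted p = 0.00399) and in 3DF_50 vs. 2DC by 2.41 ± 0.39 (edgeR, adjusted p = 0.00149). Without 2DC replicate 3 these values were 3.54 and 3.14. Against cells on top of the same kind of matrix the log2 fold change was 1.74 ± 0.23 in 3DF (edgeR, adjusted p = 0.0024) and 1.35 ± 0.19 in 3DF_50 (edgeR, adjusted p = 0.000751). In 2DF vs. 2DC it was 1.07 ± 0.42 and not called (edgeR, adjusted p = 0.122), but without 2DC replicate 3 it was 1.81 and called (edgeR, adjusted p = 0.00278).

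SPRY4, a Sprouty protein that restrains signaling from receptor tyrosine kinases to ERK, was higher in embedded cells as well. It was at 11.4, 15.4 and 19.5 FPKM in 2DC and at 18.6, 18.8 and 12.4 FPKM in 2DF. The 3DF libraries were at 36.5, 39.0 and 40.5 FPKM and those of 3DF_50 at 46.4, 51.0 and 40.3 FPKM. Again no library of embedded cells overlapped with a digested 2D library, and the 2D conditions overlapped each other.

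The log2 fold change of SPRY4 was 1.32 ± 0.19 in 3DF vs. 2DC (edgeR, adjusted p = 0.00269) and 1.57 ± 0.18 in 3DF_50 vs. 2DC (edgeR, adjusted p = 0.000229). Against 2DF it was 1.22 ± 0.17 in 3DF (edgeR, adjusted p = 0.00294) and 1.48 ± 0.16 in 3DF_50 (edgeR, adjusted p = 0.000149). Between 2DF and 2DC it was 0.11 ± 0.21 (edgeR, adjusted p = 0.757).

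SPRY2, its paralog, was the more evenly expressed of the pair. It averaged 14.9 ± 1.60 FPKM in 2DC_L, 20.4 ± 2.17 in 2DC, 27.0 ± 6.06 in 2DF, 35.04 ± 1.75 in 3DF and 25.0 ± 0.744 in 3DF_50. Its highest mean was 2.35 times the lowest, against 6.21 times for SPRY4. For 3DF vs. 2DC the log2 fold change was 0.77 ± 0.12, under the fold limit but with a low p (edgeR, adjusted p = 0.00397), and the libraries of the 2 conditions did not overlap.

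SOCS3, the feedback inhibitor of JAK and STAT3 signaling, was higher in all 3 matrix conditions than on digested coated dishes. Its level was 2.61, 2.50 and 3.77 FPKM in 2DC and 18.4, 12.5 and 22.4 FPKM in 2DF. It was 12.2, 37.4 and 14.1 FPKM in 3DF and 8.98, 10.7 and 11.7 FPKM in 3DF_50. All 9 matrix libraries lay above all 6 libraries from coated dishes.

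SOCS3 was the member called in 2DF vs. 2DC, where 4.96% of all genes were called and 2.04% were called higher, with a log2 fold change of 2.60 ± 0.24 (edgeR, adjusted p = 0.000437). It rose by 2.84 ± 0.44 in 3DF vs. 2DC (edgeR, adjusted p = 0.00397) and by 1.82 ± 0.19 in 3DF_50 vs. 2DC (edgeR, adjusted p = 0.000122). Without 3DF replicate 2, at 37.4 FPKM, the value in 3DF vs. 2DC was 2.14. Between 3DF and 2DF it was 0.26 ± 0.39 (edgeR, adjusted p = 0.729). In 3DF_50 vs. 2DF it was -0.75 ± 0.20, again under the fold limit (edgeR, adjusted p = 0.0286).

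DUSP2 went the other way from DUSP6 and SPRY4 among digested conditions. Its level was 15.1, 18.6 and 12.03 FPKM in 2DC and 14.3, 16.8 and 11.1 FPKM in 2DF, so that the digested 2D conditions overlapped almost fully. The 3DF libraries were at 4.05, 9.68 and 5.18 FPKM and those of 3DF_50 at 4.51, 4.15 and 2.61 FPKM. All 6 libraries of embedded cells lay below all digested 2D libraries and above all 3 of 2DC_L.

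DUSP2 fell in 3DF_50 vs. 2DC by 2.02 ± 0.22 on the log2 scale (edgeR, adjusted p = 0.000191) and in 3DF_50 vs. 2DF by 1.89 ± 0.22 (edgeR, adjusted p = 0.000255). In 3DF vs. 2DC it fell by 1.28 ± 0.32 (edgeR, adjusted p = 0.0281). That call was lost without 2DC replicate 1, 2DC replicate 2 or 3DF replicate 3, with edgeR adjusted p = 0.0602, 0.109 and 0.0956. For 3DF vs. 2DF the value of DUSP2 was -1.16 ± 0.30 and not called (edgeR, adjusted p = 0.0525), but it was called without 3DF replicate 2 (edgeR, adjusted p = 0.00333). It was also called at -1.16 with DESeq2 (adjusted p = 0.00216), with no filter on low counts (edgeR, adjusted p = 0.00875) and with all 5 conditions in 1 fit (edgeR, adjusted p = 0.0112).

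DUSP1 varied less among the digested conditions than against the control. Its level was 406, 458 and 485 FPKM in 2DF. The 3DF libraries were at 389, 619 and 284 FPKM, the widest spread of DUSP1 in any condition, and those of 3DF_50 at 261, 309.6 and 302 FPKM. Compared with 2DC, the log2 fold change was 0.93 ± 0.11 in 2DF (edgeR, adjusted p = 0.00115), 0.85 ± 0.26 in 3DF (edgeR, adjusted p = 0.0597) and 0.29 ± 0.10 in 3DF_50 (edgeR, adjusted p = 0.0509), and none of the 3 was called. The value in 3DF was 1.08 and called without 3DF replicate 3 (edgeR, adjusted p = 0.0237). With scaling by library size only, DUSP1 was 1.03 in 2DF vs. 2DC and 1.03 in 3DF vs. 2DC, and both were called.

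DUSP5 and DUSP4 were not called between any digested conditions. DUSP5 averaged 3.45 ± 0.927 FPKM in 2DC, 2.52 ± 0.760 in 2DF, 5.02 ± 1.27 in 3DF and 3.51 ± 0.793 in 3DF_50. Its log2 fold change in 3DF vs. 2DF was 0.998 ± 0.27 (edgeR, adjusted p = 0.0602), and the 3DF libraries lay above those of 2DF. DUSP4 averaged 0.755 ± 0.532 FPKM in 2DF, 0.590 ± 0.0999 in 3DF and 0.816 ± 0.356 in 3DF_50. Without 2DC replicate 3, which had the highest DUSP4 level of the 2DC libraries, it was called higher in 3DF vs. 2DC at 1.75 (edgeR, adjusted p = 0.0407) and in 3DF_50 vs. 2DC at 2.22 (edgeR, adjusted p = 0.0100). In both comparisons only 1 of the 3 libraries of 2DC reached the count filter. DUSP4 was therefore tested there through the 3D libraries, and these calls do not add support.

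In counts, DUSP6, SPRY4 and SOCS3 were called higher and DUSP2 lower in 3DF vs. 2DC, where 7.56% of all genes were called (3.24% higher, 4.32% lower). DUSP6, SPRY4 and SOCS3 were also called higher and DUSP2 lower in 3DF_50 vs. 2DC, against 11.6% of all genes (4.28% higher, 7.33% lower). In 3DF vs. 2DF 2 members were called higher, DUSP6 and SPRY4, against 3.78% of all genes (2.09% higher). In 3DF_50 vs. 2DF DUSP6 and SPRY4 were called higher and DUSP2 lower, against 4.45% of all genes (1.44% higher, 3.01% lower).

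Separation of the libraries was more common than calls, among members and over all genes. The libraries did not overlap for 3 members in 2DF vs. 2DC, all higher, against 17.3% of all genes separated upward. In 3DF vs. 2DC 5 members were separated upward and 1 downward, against 19.1 and 18.7% of all genes, and in 3DF_50 vs. 2DC 6 upward and 1 downward, against 25.5 and 26.2%. The 6 include DUSP4, which was tested there through the 3D libraries, since only 1 library of 2DC reached the count filter. In 3DF vs. 2DF 3 members were separated upward and 1 downward, against 15 and 14.3% of all genes, and in 3DF_50 vs. 2DF 2 upward and 3 downward, against 14.1 and 16.8%.

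Cell number per matrix made no called difference for the 8 members. In 3DF vs. 3DF_50, where 0.452% of all genes were called, 0 members were called by edgeR and 0 by DESeq2, and 2 members had an unadjusted p under 0.05 with edgeR. These were SPRY2, with a log2 fold change of 0.46 ± 0.11 (edgeR, adjusted p = 0.0906), and SOCS3, with 0.996 ± 0.37 (edgeR, adjusted p = 0.191). For both, the 3 libraries of 3DF lay above those of 3DF_50, as did those of 16.8% of all genes.

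Ordered by mean level, 2DC_L was lowest for all 8 members. The condition with the highest mean was 2DC for DUSP2, 2DF for DUSP1, 3DF for DUSP5, DUSP6, SOCS3 and SPRY2, and 3DF_50 for DUSP4 and SPRY4. The libraries of the top condition and the next one overlapped for each of the 8 genes. The highest mean was 178 times the lowest for DUSP2, 16.5 times for DUSP1, 16.2 times for DUSP6, 13.2 times for SOCS3, 11.2 times for DUSP5 and 4.61 times for DUSP4.

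Among digested conditions, libraries that share a name prefix give 1 pair each for 3DF vs. 2DC, 3DF_50 vs. 2DC, 3DF_50 vs. 2DF and 3DF_50 vs. 3DF. For 3DF vs. 2DC the ratio was 2.93 for DUSP6, 1.87 for SPRY4, 3.23 for SOCS3 and 0.336 for DUSP2. For 3DF_50 vs. 2DC it was 7.34 for DUSP6, 3.01 for SPRY4, 3.59 for SOCS3 and 0.243 for DUSP2. For 3DF_50 vs. 2DF it was 2.72 for DUSP6, 2.75 for SPRY4 and 0.290 for DUSP2. For every member called in these 3 comparisons the libraries of the 2 conditions did not overlap. Any pair would therefore have the pooled direction, and the direction within the pair adds no support. For 3DF_50 vs. 3DF, where no member was called, the ratio was 0.270 for DUSP2, 0.313 for SOCS3, 0.414 for DUSP5 and 0.487 for DUSP1. It was 0.678 for DUSP6, 0.734 for SPRY2, 0.872 for DUSP4 and 1.03 for SPRY4. The 3DF library of this pair is replicate 2, which had the highest SOCS3 level of all libraries. No prefix is shared by 2DF and 2DC or by 2DF and 3DF, so that prefix and matrix cannot be told apart in those comparisons without the other conditions. In a fit of all 5 conditions with the prefix as a block, SOCS3 in 2DF vs. 2DC was 2.13 (edgeR, adjusted p = 0.34), and in 3DF_50 vs. 2DC 1.32 (edgeR, adjusted p = 0.0652). In the same fit DUSP6 and SPRY4 in 3DF vs. 2DF were 1.58 and 1.27 (edgeR, adjusted p = 0.533 and 0.368), and in 3DF_50 vs. 2DF 1.43 and 1.44 (edgeR, adjusted p = 0.274 and 0.0582). DUSP2 in 3DF_50 vs. 2DF was -1.80 in this fit (edgeR, adjusted p = 0.0551). DUSP1 in 3DF vs. 2DC was 1.08 in it and called (edgeR, adjusted p = 0.0126).

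**Figure D3:**
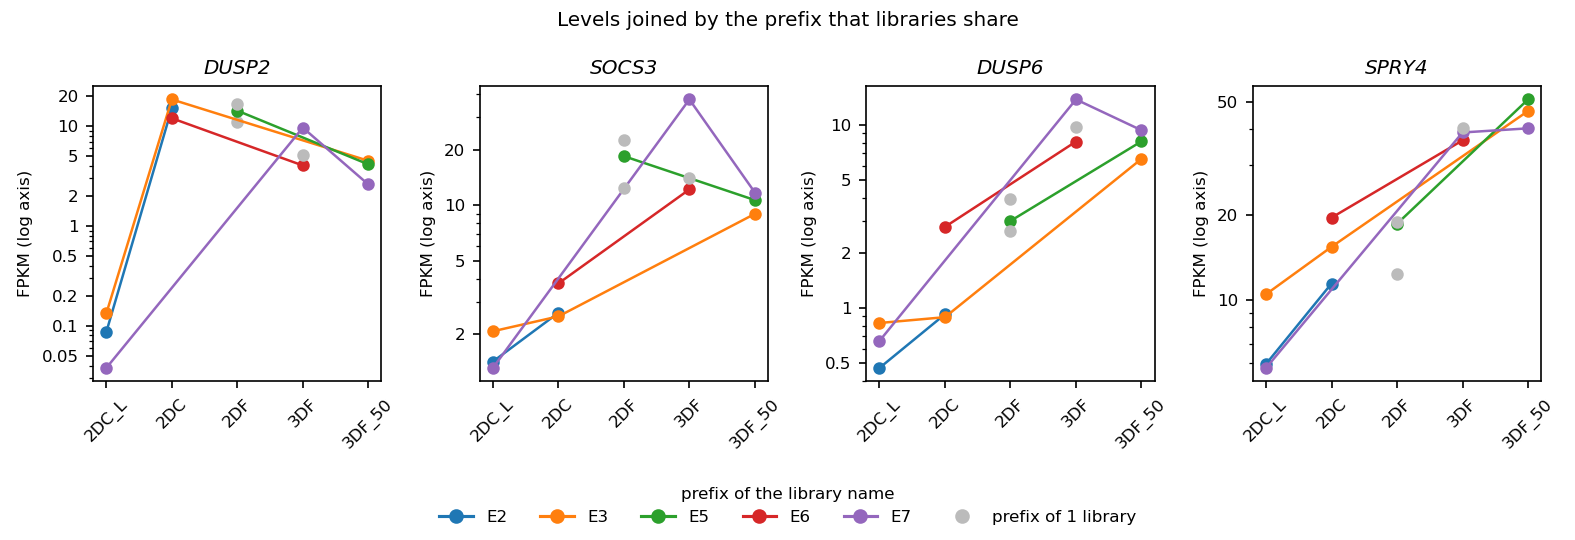
FPKM of DUSP2, SOCS3, DUSP6 and SPRY4 by condition on a log axis, with lines joining the libraries whose names share a prefix and gray points for prefixes of 1 library. The 2 lines from 2DC_L to 2DC climb steeply for DUSP2 (174 and 140 times), and the 2 lines from 2DC to a 3D condition climb for DUSP6 (2.93 and 7.34 times) and SPRY4 (1.87 and 3.01 times).

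Relatives of the members were examined in lists of the same families and pathways. With the digestion step, in 2DC vs. 2DC_L, edgeR called 0 of 7 other DUSPs tested and 1 of 7 other SOCS genes. It called 0 of 5 other Sprouty and SPRED genes and 2 of 17 other receptor and cytokine feedback inhibitors. All of those called were higher. DESeq2 also called 0, 1, 0 and 2 genes in these lists, and with edgeR 1 of the other DUSPs and 1 of the other Sprouty and SPRED genes had an unadjusted p under 0.05. The SOCS gene was SOCS1, an inhibitor of JAK kinases, at 2.80 ± 0.29 on the log2 scale. The other inhibitors were IER3, an immediate early gene, at 2.20 ± 0.12 and ZFP36, which promotes decay of cytokine mRNAs, at 4.14 ± 0.09. The median log2 fold change was 1.14 over the 8 members and 0.00 over all genes tested. Over all genes 0.265% were called, so that a count of 0 in these short lists is near that share.

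Of 15 ERK-responsive transcription factors, 8 rose with digestion, with a list median of 1.98. They were FOS at 9.66 ± 0.17, EGR1 at 7.93 ± 0.18, EGR2 at 5.96 ± 0.26, FOSB at 4.83 ± 0.19, EGR3 at 4.78 ± 0.33, IER2 at 4.05 ± 0.12, JUN at 3.35 ± 0.14 and SRF at 1.98 ± 0.09, each the log2 fold change with its SE. Of the MAPK cascade itself 0 of 21 genes were called by edgeR, as were 0 of 14 growth factors and receptors and 0 of 14 gp130 and JAK-STAT genes. In these lists 2, 0 and 2 genes had an unadjusted p under 0.05 by edgeR, and DESeq2 called 0 in each. Over all genes 0.265% were called, so that 0 calls in lists of this size are near that share and set these lists apart from no other genes.

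In 3DF vs. 2DC, 1 of 7 other DUSPs was called higher, DUSP3, an atypical phosphatase of ERK and JNK, at 1.22 ± 0.18. Of 7 other SOCS genes SOCS1 was called higher at 1.44 ± 0.36, and of 5 other Sprouty and SPRED genes 0 were called by edgeR or DESeq2, with 3 at an unadjusted p under 0.05 by edgeR. Of 16 other feedback inhibitors 3 were called higher. They were TRIB1, a pseudokinase, at 2.11 ± 0.43, ERRFI1, an inhibitor of the EGF receptor, at 1.31 ± 0.25 and NFKBIA, the inhibitor of NF-κB, at 1.01 ± 0.15. The share of all genes called in 3DF vs. 2DC was 7.56%, with 3.24% called higher. Counts of 0 or 1 in lists of 5 to 7 genes cannot be set apart from these shares. In 2DF vs. 2DC, DUSP3 was at 1.71 ± 0.23 and ERRFI1 at 1.41 ± 0.16, and both were called, against 4.96% of all genes called and 2.04% called higher.

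Genes upstream of the inhibitors were counted in 3 lists, against 7.56% of all genes called in 3DF vs. 2DC and 4.96% in 2DF vs. 2DC. Of 21 MAPK cascade genes 0 were called in 3DF vs. 2DC by edgeR or DESeq2, with 5 at an unadjusted p under 0.05 by edgeR, and 1 in 2DF vs. 2DC, the p38 kinase activator MAP2K6 at -1.15 ± 0.25. Of 14 growth factors and receptors in 3DF vs. 2DC 2 were higher and 1 lower. They were VEGFA, the endothelial growth factor, at 1.41 ± 0.21, HGF, the ligand of the MET receptor, at 1.21 ± 0.27 and PDGFB, a platelet-derived growth factor chain, at -2.55 ± 0.36. In 2DF vs. 2DC, VEGFA was at 1.87 ± 0.20, HGF at 1.22 ± 0.23 and PDGFB at -2.33 ± 0.36, all 3 called. Of 14 gp130 and JAK-STAT genes, which include ligands and receptors upstream of SOCS3, LIFR was higher in 3DF vs. 2DC at 1.05 ± 0.20 and IL6 lower at -3.30 ± 0.73. IL6 was low throughout, at 0.961 ± 0.394 FPKM in 2DC and 0.0997 ± 0.112 FPKM in 3DF. It did not pass the count filter in 3DF vs. 2DF or 3DF vs. 3DF_50. In 3DF vs. 2DC it was therefore tested through the 2DC libraries, and its call adds no support beyond the levels.

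Of 15 ERK-responsive transcription factors 5 were called higher in 3DF vs. 2DC and 4 in 2DF vs. 2DC, against 3.24 and 2.04% of all genes. In 3DF and 2DF vs. 2DC, FOSB was at 4.34 ± 0.32 and 4.04 ± 0.14 and ATF3, a stress-induced factor, at 2.79 ± 0.42 and 3.62 ± 0.43. FOS and JUN were called in both comparisons and ETV5 in 3DF vs. 2DC. In 3DF vs. 2DF, where DUSP6 and SPRY4 were the members called, the genes called in these lists were SPRY1 at 1.38 ± 0.18, SOCS1 at 1.44 ± 0.31, TNFAIP3 at 1.10 ± 0.16, IL6ST at 1.08 ± 0.20 and ETV5 at 1.61 ± 0.18, all higher. The share of all genes called higher in 3DF vs. 2DF was 2.09%. SPRY1 is another Sprouty gene and ETV5 a factor induced by receptor tyrosine kinase signaling. In 3DF_50 vs. 2DF, where DUSP6 and SPRY4 were also called higher, SOCS1 at 1.38 ± 0.17 and ETV5 at 1.74 ± 0.11 were called higher. EREG at -2.80 ± 0.59, ATF3 at -1.39 ± 0.41, JUN at -1.35 ± 0.18, MYC at -1.05 ± 0.19 and ERRFI1 at -1.02 ± 0.13 were called lower there. SPRY1 at 0.62 ± 0.15, TNFAIP3 at 0.75 ± 0.16 and IL6ST at 0.27 ± 0.12 were not called. The share of all genes called in 3DF_50 vs. 2DF was 1.44% higher and 3.01% lower. EREG did not pass the count filter in 3DF vs. 3DF_50. It was therefore tested in 3DF_50 vs. 2DF through the 2DF libraries, and its call adds no support. The genes of these 2 comparisons, like NFKBIA, HGF, FOS and JUN in the matrix comparisons, were named after their values were seen, outside the rule used for the others.

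**Figure D4:**
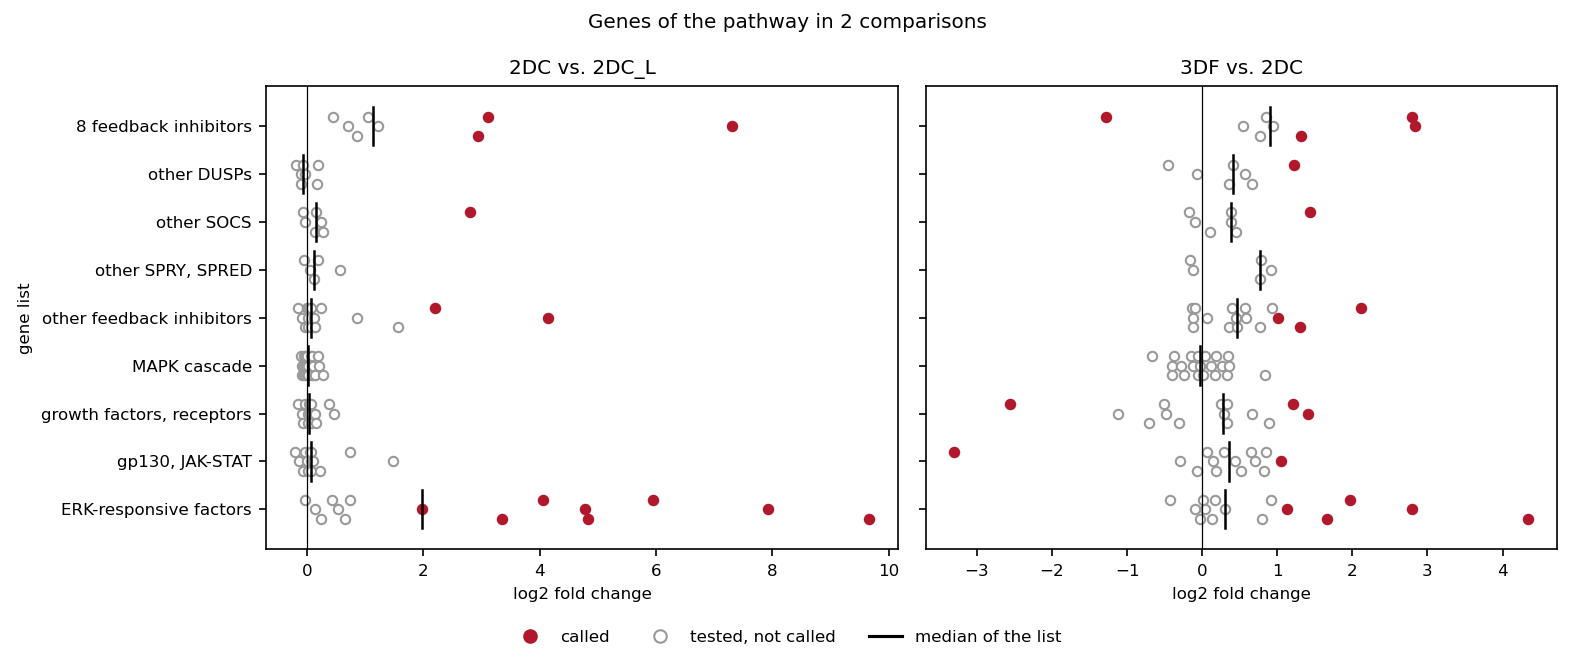
Log2 fold change (edgeR) of every gene tested in each list of related genes and among the 8 inhibitors (points, filled where called, with the list median as a bar), for 2DC vs. 2DC_L and 3DF vs. 2DC. In 2DC vs. 2DC_L the called genes lie mainly among the inhibitors (3 of 8) and the ERK-responsive factors (8 of 15), and the MAPK cascade (0 of 21 called) stays near 0. DUSP2, among the 3, was tested there only through the 2DC libraries. Of all genes, 0.265% were called in that comparison.

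For each member, the 3 genes with the most similar pattern were taken by Pearson r of log2(FPKM + 1) over the 15 libraries, among 9689 genes with a symbol and a mean of at least 1 FPKM. The 15 libraries share conditions, so r is a description. For DUSP1 they were FOS (r = 0.988), IER2 (r = 0.983) and JUN (r = 0.979). For DUSP2 they were ZFP36 (r = 0.938), BTG2 (r = 0.910) and IER2 (r = 0.907), and for DUSP5 IER3 (r = 0.928), EGR2 (r = 0.928) and SOCS1 (r = 0.919). These are mostly immediate early genes.

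SOCS3 was closest to KLF4 (r = 0.973), OTUD1 (r = 0.964) and CSRNP1 (r = 0.961). The genes closest to DUSP6 were TUBA4A (r = 0.957), TCF4 (r = 0.956) and MFSD6 (r = 0.954), and those closest to SPRY4 were NQO1 (r = 0.955), KLHL21 (r = 0.943) and DEGS1 (r = 0.941). SPRY2 was closest to MAP4K4 (r = 0.930), AHI1 (r = 0.924) and PXK (r = 0.914). The list for DUSP4, which has few counts, included SLC19A1 (r = 0.890) and PDCD11 (r = 0.881). The search was planned over genes that are not members, so that it does not show how alike the members are to each other.

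Markers of other cell types moved with some of these comparisons. The summed level of 6 corneal epithelial markers was 0.0699 to 0.846 FPKM in 2DC, 0.685 to 5.72 in 2DF and 7.37 to 12.5 in 3DF. In 3DF vs. 2DC 4 of them were tested and all 4 were called higher, against 3.24% of all genes called higher. KRT12, the defining corneal keratin, was at 0 in 2DC and 2DC_L, so that it was tested through the 3DF libraries alone. In 2DF vs. 2DC only 1 of the 6 passed the count filter. The number of calls is therefore no support beyond the levels. In replicates 1, 2 and 3 of 3DF_50 the epithelial sum was 0.0373, 0.116 and 5.77 FPKM. In the same order DUSP6 was at 6.54, 8.15 and 9.37 FPKM, SPRY4 at 46.4, 51.0 and 40.3 FPKM, SOCS3 at 8.98, 10.7 and 11.7 FPKM and DUSP2 at 4.51, 4.15 and 2.61 FPKM. The library with the high sum thus had the highest DUSP6 and SOCS3 and the lowest SPRY4 and DUSP2 of its condition. In replicates 1, 2 and 3 of 3DF the sum was 7.37, 12.5 and 8.87 FPKM, and replicate 2 also had the highest DUSP6, at 13.8 FPKM, and SOCS3, at 37.4 FPKM. The part of the epithelial markers in these differences was not tested.

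The sum of 5 vascular endothelial markers was 32.9 to 62.5 FPKM in 2DC, 51.2 to 67.8 in 2DF, 117 to 119 in 3DF and 49.9 to 75.5 in 3DF_50. The markers did not move together. In 3DF vs. 2DF, KDR was called higher at 1.12 ± 0.15. The other markers tested there, CDH5 at -0.64 ± 0.24 and VWF at 0.17 ± 0.39, were not called. PECAM1 was at 0 in 3DF_50. The sum of 6 leukocyte markers was 2.01 to 3.52 FPKM in 2DC_L, 2.24 to 4.86 in 2DC, 3.603 to 7.93 in 2DF, 2.51 to 3.04 in 3DF and 3.28 to 3.83 in 3DF_50. Of 2 leukocyte markers tested, CD68 was called higher in 2DF vs. 2DC_L, at 1.63 ± 0.34 (edgeR, adjusted p = 0.0077), and lower in 3DF vs. 2DF, at -1.36 ± 0.34 (edgeR, adjusted p = 0.0452). Of the defining markers, CD163 was at 0 in every condition and PTPRC at 0 in 2DF. The 2 myofibroblast markers fell in 3DF vs. 2DC, from a sum of 4.67 to 7.11 FPKM to 0.372 to 0.754 FPKM. The sum of 8 heat shock genes was 1024 to 1442 FPKM, and 0 of 8 were called in 2DC vs. 2DC_L by edgeR or DESeq2, with 0 at an unadjusted p under 0.05 by edgeR. Of all genes, 0.265% were called there by edgeR. The part of the endothelial, leukocyte and myofibroblast differences in the member results was not tested.

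On the oryCun2 assembly, to which the reads were aligned, DUSP1 lies on chromosome 3 at 53838319 to 53841423 (minus strand) and SPRY4 on chromosome 3 at 24304905 to 24317299 (minus strand). DUSP2 lies on chromosome 2 at 95158095 to 95160072 (plus strand), DUSP5 on chromosome 18 at 58114315 to 58128355 (plus strand), DUSP6 on chromosome 4 at 68380267 to 68384377 (minus strand) and SPRY2 on chromosome 8 at 82254040 to 82259184 (minus strand). DUSP4 and SOCS3 are on unplaced scaffolds. None of the 8 overlaps another gene of the table.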

How the data were processed

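Bulk RNA-seq of total RNA from 15 libraries was analyzed (3 per condition). The authors' deposited counts are reads per gene, made by alignment to oryCun2 with HISAT2 2.0.5 and counting with featureCounts 1.5.0-p3, and the strand setting was not given in the sources used here. The authors' deposited FPKM values scale these counts for gene length and library size. Conditions and replicate numbers were read from the labels. The replicates are separate experiments according to the study's methods.

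Pairs of conditions were compared with edgeR 4.0.16 in R 4.3.3 (TMM, filterByExpr with a minimum count of 10, 2 conditions per fit), after tests on simulated data. The study used DESeq2 1.20.0 with the same thresholds. SE is the log2 fold change divided by the square root of F. Alternatives used DESeq2 1.42.0, limma 3.58.1 with a pseudocount of 1 or 0.1 added to FPKM before taking log2, other scalings and filters, replicate or prefix blocks, and fits without each library. Between replicates the chi-square of the counts was 17.1 to 89.5 per gene, far above counting error, and the errors given are those between libraries.

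The members and gene lists were chosen with earlier results of these data known. All 8 members and, of the lists, genes called in 2DC vs. 2DC_L and the 2 of each list with the largest called change in 3DF or 2DF vs. 2DC were named, with 3 similar genes per member, of which 1 is not reported here.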

Additional observations from a re-analysis of the deposited data

How the results depend on the processing

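Of 664 values of called member results under alternatives, 639 kept direction and call, 25 lost the call and 0 changed sign. Of 188 counts of members called, 178 stayed within 1.5 times the reported count. With the library prefix as a block in a fit of all 5 conditions, 25 of 39 calls were kept, and the count was 2 in 2DF vs. 2DC_L, 0 in 2DF vs. 2DC, 0 in 3DF vs. 2DF and 0 in 3DF_50 vs. 2DF. 2DF shares only 1 prefix with any other condition. In 2DF vs. 2DC 2 members were called with DESeq2, with scaling by library size only, with a replicate block and with no limit on the fold change, and in 3DF_50 vs. 2DF 5 were called with no limit. Scaling by library size only called 5 further member results, which were DUSP1 in 2DF and in 3DF vs. 2DC, DUSP4 in 3DF_50 vs. 2DC, DUSP5 in 3DF vs. 2DF and SPRY2 in 3DF_50 vs. 2DC_L. The causes were not tested. The share of all genes called, 0.265 to 13.5% as reported, moved by over 1.5 times with limma on log2(FPKM + 1) in 9 comparisons, to 0.0407 to 6.35%, with no limit on the fold change in 8, to 6.05 to 42.9%, and with the prefix block in 5, to 0.0285 to 1.68%. In 3DF vs. 3DF_50, at 0.452%, it was 1.06% with DESeq2, 1.4% with all 5 conditions in 1 fit, 0.82% with no filter and 0.108% with limma on log2(FPKM + 0.1). In 2DC vs. 2DC_L, at 0.265%, it was 0.721% with shared prefixes alone.

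Leaving out 1 library gave 1 to 2 members in 2DF vs. 2DC, the 2 being without 2DC replicate 3, 6 to 7 in 2DF vs. 2DC_L, 7 to 8 in 3DF vs. 2DC_L, 3 to 5 in 3DF vs. 2DC, 4 to 5 in 3DF_50 vs. 2DC, 2 to 3 in 3DF vs. 2DF and 6 to 7 in the F test. In 2DC vs. 2DC_L it was 3 in each of 6 fits, and in 3DF vs. 3DF_50 it was 0 in each (edgeR).

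The values that changed sign belong to results that were not called. With scaling by library size only, which placed the median of all genes at 0.11 in 2DF vs. 2DC and at 0.25 in 3DF_50 vs. 2DF on the log2 scale, DUSP2 in 2DF vs. 2DC was 0.0078 and SPRY2 in 3DF_50 vs. 2DF was 0.14. With the prefix block, DUSP4 in 2DF vs. 2DC was -0.24, DUSP5 in 3DF_50 vs. 2DC -0.33, DUSP1 in 3DF vs. 2DF 0.58 and DUSP4 in 3DF vs. 2DF 1.01. With the 2 prefixes shared by 2DC and 2DC_L alone, an alternative chosen after seeing the data, DUSP4 was -0.25. Without single libraries, DUSP4 ranged from -0.082 to 1.07 in 2DC vs. 2DC_L, -0.63 to 0.40 in 3DF vs. 2DF and -0.29 to 0.87 in 3DF_50 vs. 2DF. DUSP2 ranged from -0.25 to 0.059 and SPRY4 from -0.068 to 0.31 in 2DF vs. 2DC. DUSP5 ranged from -0.19 to 0.20 in 3DF_50 vs. 2DC, DUSP1 from -0.43 to 0.17 and SOCS3 from -0.45 to 0.54 in 3DF vs. 2DF, and SPRY2 from -0.21 to 0.10 in 3DF_50 vs. 2DF.

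In no comparison did all 3 pairs of samples with the same replicate number have a correlation of their deviations above 0.1, and the labels do not say that a number marks a shared experiment, so that the numbers were not taken as pairs. With the replicate number as a block, DUSP6 in 2DF vs. 2DC was 1.22 (edgeR, adjusted p = 0.0247) and DUSP2 in 3DF vs. 2DF was -1.23 (edgeR, adjusted p = 0.022), and both were then called. No other member call changed under this block. In 2DC vs. 2DC_L the 3 correlations were 0.322, 0.064 and 0.105, replicates 1 and 2 of these conditions share a library prefix, and every 2DC sample correlated best with its own number. In 3DF_50 vs. 2DC_L the 3 were 0.140, 0.075 and 0.259, replicate 3 shares a prefix, and every 3DF_50 sample correlated best with its own number.

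DUSP4 had 4 to 51 counts per library. With limma on log2(FPKM + 1), a scale that understates changes of low genes, its 3 calls against 2DC_L were lost.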
